A study of Mus musculus with 6 samples.

Results

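The mitochondrial respiratory chain was described in whole mouse embryos cultured in narrow or wide cavities, through the nuclear genes that encode its subunits. The genes were chosen by name: every gene named alone by a row of the array and belonging to the Ndufa, Ndufb, Ndufc, Ndufs, Ndufv, Uqcr, Cox4i, Cox5, Cox6, Cox7, Cox8 or Atp5 families, together with Sdha to Sdhd and Cyc1. This gave 90 of the 19938 genes measured, and a gene with several rows was read from the row with the highest mean over the 6 arrays. They comprised 36 genes of complex I, 4 of complex II, 9 of complex III, 17 of complex IV and 17 of ATP synthase, plus 7 assembly factors of complex I (Ndufaf1 to Ndufaf7) that share the Ndufa prefix. Ndufb4, Cox7c and the subunits encoded by mitochondrial DNA are not analysed here.

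The 3 narrow pools held embryos grown in cavities of 90 µm diameter and the 3 wide pools embryos grown in cavities of 180 µm. All were CD1 embryos, an outbred stock, taken at embryonic day 5.0 and cultured for 8 hours, with no other treatment named. Each pool combined 30 whole embryos, so a value is an average over tissues and embryos, and the design text calls the 3 pools of a cavity biological replicates. The series compared embryos with and without external mechanical cues, and the design text names the narrow cavity first.

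The respiratory chain passes electrons from NADH (through complex I) and from succinate (through complex II) to ubiquinone, then through complex III and cytochrome c to complex IV, which reduces oxygen. Complexes I, III and IV pump protons across the inner mitochondrial membrane, and ATP synthase uses the resulting gradient to make ATP. Most subunits are encoded in the nucleus, and the factors NRF1, GABP (an ETS factor) and YY1 are known to bind the promoters of many of these genes. The early postimplantation embryo is known to use glycolysis strongly beside respiration.

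The promoters give a feature that the choice of genes did not use. RefSeq promoter sequences of build GRCm38.p6, each from 250 bases before to 50 bases after the start of a gene, were held for 73 of the 90 genes, and a gene with several was counted once if any of them matched. The letters CGCATGCG, the core of the NRF1 motif, read the same on both strands. They occurred in 11 of these 73 (15.1%), against 469 of the 15563 genes of the array with a promoter in the table (3.01%). The ETS letters CCGGAAG, on either strand, occurred in 18 of 73 (24.7%), against 13.6% of the array's genes. The YY1 letters AAGATGGC, on either strand, occurred in 10 of 73 (13.7%), against 3.77%. Matches of different motifs overlapped 0 times in these promoters, and 33 of the 73 held at least one of the 3 (45.2%, against 18.8% of the array's genes). A match is a description of the letters and not evidence of binding. The 11 NRF1 core matches are shown because that motif had the lowest share among the array's genes, with 10 bases on each side (9 before it in Atp5l, where the window begins), 5′ to 3′ on the strand of the gene, with the motif in capitals.
Atp5g2 (chr15:102671071-102671098, minus strand): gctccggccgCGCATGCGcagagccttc
Atp5j (chr16:84835106-84835133, minus strand): ggccagaataCGCATGCGtacagtgcag
Atp5k (chr5:108434431-108434458, minus strand): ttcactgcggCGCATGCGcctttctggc
Atp5l (chr9:44920966-44920992, minus strand): aaccaataaCGCATGCGcatttccccc
Cox6a1 (chr5:115349102-115349129, minus strand): aggaacggggCGCATGCGcgctctcgct
Ndufa11 (chr17:56717693-56717720, plus strand): ctgcactgcgCGCATGCGcgcacgcctt
Ndufa8 (chr2:36049330-36049357, minus strand): tcgctggagaCGCATGCGcagatggtac
Ndufaf4 (chr4:24897961-24897988, plus strand): cagatgtctgCGCATGCGcctgtgcgga
Ndufaf5 (chr2:140170653-140170680, plus strand): gtcccgttggCGCATGCGcctaatagaa
Uqcr11 (chr10:80406809-80406836, minus strand): atcgccttcaCGCATGCGctatacgtct
Uqcrc1 (chr9:108936669-108936696, plus strand): ctccgctctgCGCATGCGcagcgcggct

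The 2 arrays numbered 1 stood apart from the other 4 on the first principal component (38.5% of the variance), at -10.6 for narrow 1 and -8.01 for wide 1 against 2.76 to 5.87. The whole-embryo label was set against marker genes. All 4 epiblast, 5 visceral endoderm and 4 extraembryonic ectoderm markers lay above the median signal of all genes, and 0 of 5 measured genes of decidua and blood did. No background level came with the arrays, so whether a dim gene is expressed could not be told. In pooled embryos, fewer cells of a type and less RNA per cell cannot be told apart.

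The respiratory chain genes had nearly the same signal in both cavities. By limma with Benjamini-Hochberg adjustment over all genes, 0 of the 90 passed (adjusted p = 1.00 for each), as did 0% of all 19938 genes. At an unadjusted p under 0.05 there were 2 of the 90 (2.22%), both higher in narrow pools, against a background of 3.40% in either direction, 1.68% for genes higher and 1.72% for genes lower in narrow. The 90 differences, narrow minus wide, ran from -0.067 to 0.11 on the log2 scale, and 66 of them were smaller than 0.05 in size. Their median was 0.013, against 0.0011 over all genes and 0.0065 over the 9969 genes above the median signal, to which 82 of the 90 belong. The 95% interval of the limma fit lay within 1.2-fold in either direction for 90 of 90 genes and within 1.1-fold for 43. For a single gene, an exact permutation test of 3 pools against 3 cannot go below p = 0.1.

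Most differences were slightly positive. Of the 90 genes, 59 had a positive difference (65.6%), against 50.9% of all genes and 56.5% of those above the median signal. All 3 narrow pools lay above all 3 wide pools for 8 of the 90 (8.89%), against 4.17% of all genes and 5.30% of those above the median signal. All narrow pools lay below all wide pools for 0 of 90, against 3.54% of all genes and 2.84% of those above the median signal. The 8 were Ndufc1, Uqcr10, Uqcrfs1, Uqcrq, Cox6b1, Atp5e, Atp5mpl and Ndufaf5. In either direction the groups were separate for 8.89% of the 90, against 7.70% of all genes. With each array centred on its median, the 8 above became 10 and the 0 below became 1 (12.2% in either direction, against 8.26% of all genes). With quantile normalization they became 6 and 2 (8.89%, against 8.33% of all genes). The median over the 90 genes of the difference between same-numbered pools was 0.010 for pools 1, 0.038 for pools 2 and -0.0025 for pools 3. The small shift was thus not in all pairs. Over all genes the same medians were -0.011, 0.019 and -0.0024.

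**Figure D1:**
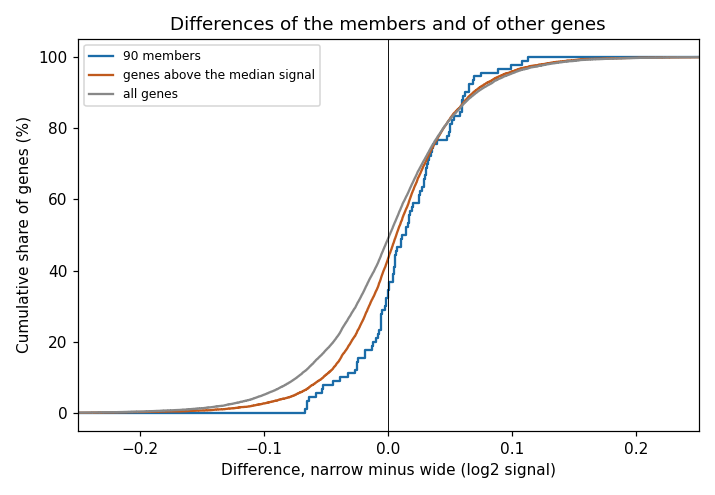
Cumulative share of genes (vertical axis, percent) against the difference, narrow minus wide (horizontal axis, log2 signal), for the 90 respiratory chain genes, the genes above the median signal and all genes. The respiratory chain curve runs from -0.067 to 0.11 and passes its median at 0.013; the horizontal axis leaves out genes beyond 0.25 in size.

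Complex III, ubiquinol to cytochrome c oxidoreductase, held the 2 genes with an unadjusted p under 0.05, and 7 of its 9 genes had a positive difference, with a median of 0.053. Uqcrfs1 encodes the Rieske iron-sulfur protein, which takes the first electron from ubiquinol. Its log2 signals were 10.41, 10.49 and 10.52 in narrow pools 1, 2 and 3, against 10.35, 10.39 and 10.34 in wide pools 1, 2 and 3. The lowest narrow pool lay just above the highest wide pool. The difference was 0.11 ± 0.045 (SE, limma), a 1.08-fold higher signal in narrow pools (95% interval 0.0083 to 0.22, unadjusted p = 0.0375, adjusted p = 1.00).

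Uqcr10 encodes a small subunit of complex III that neighbours the Rieske protein and cytochrome c1. It had log2 signals of 10.58, 10.62 and 10.58 in narrow pools, against 10.48, 10.48 and 10.52 in wide pools, so the groups did not overlap. Its difference was 0.099 ± 0.039 (SE, limma), or 1.07-fold (unadjusted p = 0.0354, adjusted p = 1.00). Both genes had an unadjusted p under 0.05 without narrow 1, and neither had one without narrow 2, narrow 3, wide 1, wide 2 or wide 3. Over the fits without 1 array, the unadjusted limma p ran from 0.0130 to 0.122 for Uqcrfs1 and from 0.0455 to 0.110 for Uqcr10. With the replicate number as a block, 3 of the 90 genes had an unadjusted p under 0.05, all higher in narrow, against 7.25% of all genes in either direction, 3.54% higher and 3.72% lower. The third was Atp5e.

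Uqcrq, a small ubiquinone-binding subunit, had log2 signals of 11.49, 11.57 and 11.51 in narrow pools, against 11.43, 11.44 and 11.47 in wide pools. Its groups did not overlap either, with a difference of 0.075 ± 0.041 (SE) and an unadjusted limma p of 0.104. The core protein Uqcrc1 had a difference of 0.060 and the hinge protein Uqcrh of 0.049. Uqcr11, a small subunit, had the widest interval of all 90 genes, with a difference of 0.053 (95% interval -0.14 to 0.25). Cyc1, the cytochrome c1 that hands electrons on to cytochrome c, lay at 12.58, 12.53 and 12.52 in narrow pools, against 12.55, 12.54 and 12.56 in wide pools. Those values overlapped, and its difference was -0.0056 ± 0.039. The second core protein Uqcrc2 (0.00053) and the ubiquinone-binding Uqcrb (-0.0052) had differences close to 0 as well.

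The promoters of Uqcr10, Uqcrfs1 and Atp5e are shown because these 3 genes had the smallest unadjusted p-values of the 90. Each runs 5′ to 3′ on the strand of the gene, with any of the 3 motifs in capitals. None of the 3 motifs was found in the windows of Uqcr10 and Uqcrfs1, which says only that these letters are not there, and that of Atp5e held the ETS letters on the opposite strand.
Uqcr10 (chr11:4704295-4704594, minus strand): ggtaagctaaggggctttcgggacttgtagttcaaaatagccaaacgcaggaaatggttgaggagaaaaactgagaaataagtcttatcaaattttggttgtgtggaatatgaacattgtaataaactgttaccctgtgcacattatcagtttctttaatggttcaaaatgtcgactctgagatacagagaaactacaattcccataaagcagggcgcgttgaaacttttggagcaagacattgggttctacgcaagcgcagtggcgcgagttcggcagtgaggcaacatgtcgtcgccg
Uqcrfs1 (chr13:30545267-30545566, minus strand): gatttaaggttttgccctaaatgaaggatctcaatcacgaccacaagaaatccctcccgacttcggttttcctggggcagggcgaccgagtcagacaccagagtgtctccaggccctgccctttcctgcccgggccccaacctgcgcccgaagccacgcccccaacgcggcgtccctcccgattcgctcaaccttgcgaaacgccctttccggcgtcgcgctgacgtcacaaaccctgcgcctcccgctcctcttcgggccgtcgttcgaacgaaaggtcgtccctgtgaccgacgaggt
Atp5e (chr2:174464052-174464351, minus strand): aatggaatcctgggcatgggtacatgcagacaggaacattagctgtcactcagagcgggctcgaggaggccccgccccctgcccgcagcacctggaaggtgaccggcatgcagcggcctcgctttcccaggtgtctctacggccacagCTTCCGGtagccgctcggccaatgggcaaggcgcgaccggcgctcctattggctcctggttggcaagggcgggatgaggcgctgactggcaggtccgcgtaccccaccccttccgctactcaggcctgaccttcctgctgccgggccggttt

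ATP synthase had 13 of 17 positive differences with a median of 0.019. Atp5e encodes the epsilon subunit of the central stalk. Its log2 signals were 9.80, 9.82 and 9.89 in narrow pools, against 9.66, 9.75 and 9.78 in wide pools. The groups did not overlap, and the difference was 0.11 ± 0.047 (SE, limma), or 1.08-fold, with an unadjusted p of 0.0516 and an adjusted p of 1.00. With the replicate number as a block its unadjusted p was 0.0227, and its adjusted p was 0.674.

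Atp5c1, the gamma subunit that turns within the catalytic head, had the most negative difference of the 90, at -0.067 ± 0.044 (SE, limma, unadjusted p = 0.169). It had 12.54, 12.44 and 12.43 in narrow pools, against 12.53, 12.53 and 12.54 in wide pools, with narrow 1 inside the wide range. Without narrow 1 its unadjusted p was under 0.05. Atp5mpl, a small accessory subunit, had 11.44, 11.32 and 11.33 in narrow pools, against 11.27, 11.32 and 11.32 in wide pools. Its groups were separate by a narrow margin, with only narrow 1 clearly higher, and its difference was 0.059 ± 0.047.

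The catalytic head showed almost no difference. Atp5b, the beta subunit that carries the catalytic sites, had 13.45, 13.41 and 13.40 in narrow pools, against 13.42, 13.40 and 13.40 in wide pools, a difference of 0.017 (95% interval -0.073 to 0.11). Atp5a1, the alpha subunit, had 12.91, 12.86 and 12.86 in narrow pools, against 12.92, 12.83 and 12.86 in wide pools, a difference of 0.0058. Pool 1 was the highest of its group for both genes in both cavities. Atp5g1, Atp5g2 and Atp5g3 encode the same mature subunit of the proton-carrying ring. Atp5g1 had 13.01, 13.06 and 12.99 in narrow pools, against 13.02, 12.96 and 12.97 in wide pools, a difference of 0.039. Atp5g2 had 12.46, 12.48 and 12.41 in narrow pools, against 12.49, 12.40 and 12.42 in wide pools, a difference of 0.018. Atp5g3 had 12.64, 12.76 and 12.70 in narrow pools, against 12.64, 12.63 and 12.69 in wide pools, a difference of 0.050. The groups overlapped for each of the 3.

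Complex I, NADH to ubiquinone oxidoreductase, had 25 of 36 positive differences with a median of 0.013. The flavoprotein Ndufv1, which accepts electrons from NADH, had 11.44, 11.45 and 11.40 in narrow pools, against 11.48, 11.36 and 11.43 in wide pools. Its values overlapped fully, with a difference of 0.0046 (95% interval -0.10 to 0.11). The iron-sulfur subunit Ndufs1 had 11.17, 11.07 and 11.03 in narrow pools, against 11.12, 11.06 and 11.06 in wide pools, and a difference of 0.011. Ndufs7, an iron-sulfur subunit near the ubiquinone site, had 12.79, 12.81 and 12.79 in narrow pools, against 12.80, 12.72 and 12.78 in wide pools. It was nearly level in narrow pools and low in wide 2, with a difference of 0.030.

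The smallest p-values of complex I belonged to accessory subunits of its membrane arm, and 0 were under 0.05. Ndufc1 had 10.60, 10.73 and 10.60 in narrow pools, against 10.49, 10.59 and 10.59 in wide pools, a difference of 0.089 ± 0.053 (SE, limma, unadjusted p = 0.135). Its groups did not overlap, although 2 of the narrow pools lay just above 2 of the wide pools. Ndufb2 had 9.26, 9.28 and 9.23 in narrow pools, against 9.16, 9.17 and 9.24 in wide pools, where wide 3 fell inside the narrow range. Ndufb5 had 11.46, 11.39 and 11.32 in narrow pools, against 11.37, 11.32 and 11.28 in wide pools. Ndufb2 had a difference of 0.069 and Ndufb5 one of 0.065. The lowest difference of complex I was that of Ndufa12, an accessory subunit, at -0.064. Ndufa4 is listed here by its name, although its protein is known to associate with complex IV, and had a difference of 0.031.

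The 7 assembly factors of complex I do not remain in the finished enzyme and had 4 positive differences with a median of 0.0050, or 3 and -0.0045 with quantile normalization. Ndufaf5 had 7.80 in each of the 3 narrow pools, against 7.69, 7.79 and 7.74 in wide pools, without overlap, and a difference of 0.058 ± 0.042. Ndufaf7, at 0.068, had the highest difference and Ndufaf1, at -0.058, the lowest.

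Complex II, succinate dehydrogenase, works both in the chain and in the citric acid cycle and showed the smallest range of differences, from -0.0086 to 0.029 over its 4 genes. Sdha, the flavoprotein that oxidises succinate, had 11.90, 11.89 and 11.91 in narrow pools, against 11.91, 11.88 and 11.93 in wide pools. The iron-sulfur subunit Sdhb had 10.66, 10.72 and 10.71 in narrow pools, against 10.64, 10.68 and 10.68 in wide pools. Both were close to level over the 6 pools. Of the membrane anchors, Sdhc had 11.36, 11.52 and 11.46 in narrow pools, against 11.40, 11.41 and 11.48 in wide pools, and a difference of 0.014. Sdhd had 11.66, 11.63 and 11.62 in narrow pools, against 11.63, 11.60 and 11.64 in wide pools, and a difference of 0.016. The groups overlapped for all 4 genes, and the interval of Sdha, from -0.097 to 0.080, is among the narrower ones of the chain.

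Complex IV, cytochrome c oxidase, had 10 negative differences of 17, with a median of -0.0016, although with each array centred on its median 9 of the 17 were positive and the median was 0.0028. Cox5a, a subunit on the matrix side of the enzyme, had its smallest p. It had 11.46, 11.55 and 11.53 in narrow pools, against 11.39, 11.48 and 11.48 in wide pools, a difference of 0.062 ± 0.048 (SE, limma, unadjusted p = 0.234), positive in 3 of 3 same-numbered pairs. Cox4i1, the largest nuclear subunit, had 11.29, 11.33 and 11.29 in narrow pools, against 11.34, 11.25 and 11.31 in wide pools, and a difference of 0.0037. Its groups overlapped fully.

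Several subunits of complex IV have a second isoform made in muscle, lung or testis, and these were followed beside the widely expressed ones. Cox6b1 had 12.44, 12.46 and 12.42 in narrow pools, against 12.38, 12.41 and 12.42 in wide pools, barely separate, and a difference of 0.036, whereas its testis isoform Cox6b2 had 7.80, 7.77 and 7.94 in narrow pools, against 8.00, 7.88 and 7.84 in wide pools, and a difference of -0.066 ± 0.062. Cox7a2 had 12.28, 12.20 and 12.15 in narrow pools, against 12.16 in each of the 3 wide pools, and a difference of 0.047, while its muscle isoform Cox7a1 had -0.0016. Cox6a1 had 11.88, 11.78 and 11.81 in narrow pools, against 11.92, 11.65 and 11.88 in wide pools, and a difference of 0.0047. Its muscle isoform Cox6a2 had 7.52, 7.63 and 7.65 in narrow pools, against 7.55, 7.68 and 7.73 in wide pools, and a difference of -0.053. The groups overlapped for both. Cox8a had 12.46, 12.49 and 12.43 in narrow pools, against 12.50, 12.37 and 12.42 in wide pools, and a difference of 0.026. Cox8b of muscle had 6.81, 6.91 and 6.71 in narrow pools, against 6.93, 6.74 and 6.82 in wide pools, and a difference of -0.019. Cox8c of testis had 7.23, 7.26 and 7.08 in narrow pools, against 7.24, 7.27 and 7.26 in wide pools, and a difference of -0.065. It was low in narrow 3 alone, and the groups of all 3 Cox8 genes overlapped. Cox4i2, the lung isoform that responds to oxygen, had 7.93, 8.02 and 7.91 in narrow pools, against 8.01, 8.00 and 7.99 in wide pools, a difference of -0.044. Cox7b had a difference of -0.032 and its testis isoform Cox7b2 one of 0.025. The direction of several of these differences was not stable. The sign changed for Cox6a1 (-0.00039) with quantile normalization and for Cox7a1 (0.0028) with median centring. On leaving out 1 array the sign changed for Cox4i1, Cox6a1, Cox7a1, Cox7b2, Cox8a and Cox8b. All differences were within 0.066 of 0, and all intervals include 0. Differences between isoforms were not tested. Probe sequence also sets the brightness of a gene, so the levels of 2 isoforms were not set against each other.

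**Figure D2:**
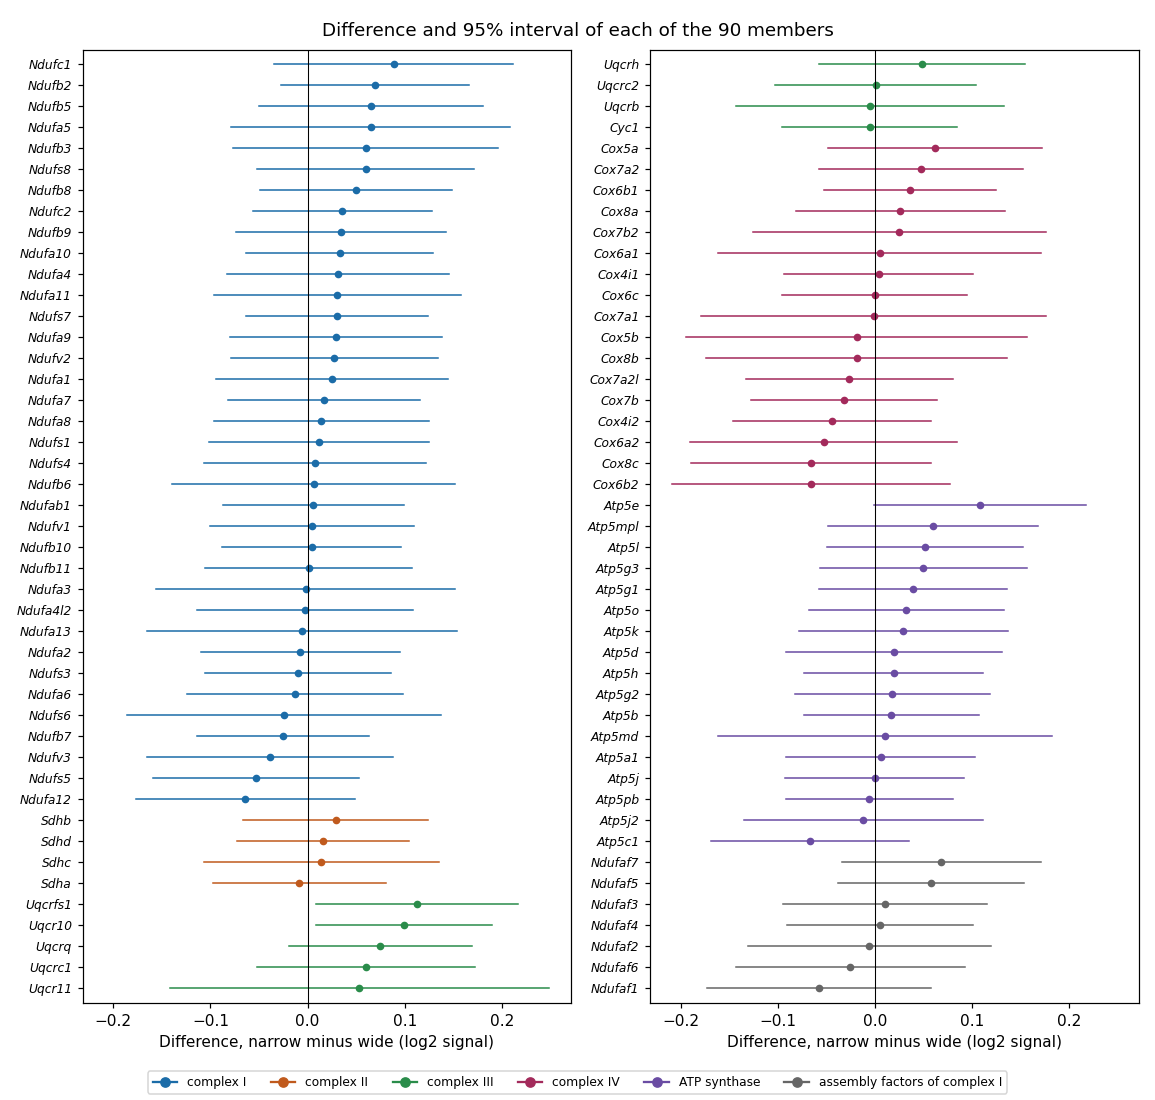
Difference in log2 signal, narrow minus wide (horizontal axis), of each of the 90 genes with the 95% interval of the limma fit, coloured by complex and ordered within it. The intervals of Uqcrfs1 and Uqcr10 alone exclude 0, and no interval reaches beyond -0.21 or 0.25.

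**Figure D3:**
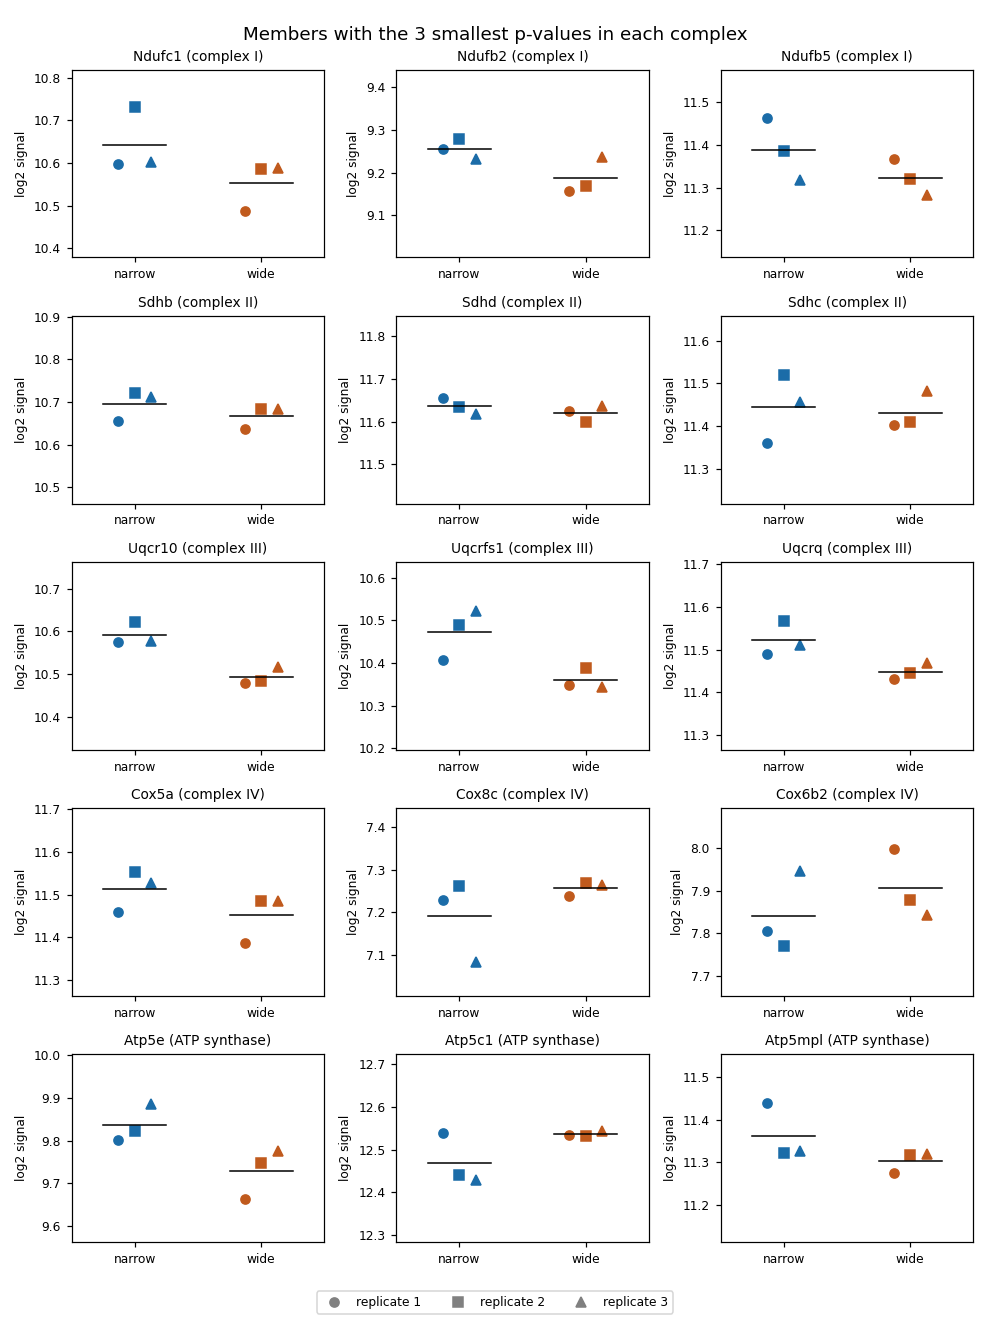
Log2 signal of each pool (vertical axis, same length of scale in every panel) for the 3 genes with the smallest unadjusted p in each complex, narrow pools left of wide pools, with bars at group means and symbols for replicate numbers. Uqcr10, Uqcrfs1, Uqcrq, Ndufc1, Atp5e and Atp5mpl have separate groups, and the panels of complex II overlap.

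The arrays numbered 1 were set beside the other 4, and differences of this split were mostly larger in size than those by cavity. These 2 arrays already stood apart on the first principal component of the same values, so a larger difference is not an independent result. A contrast of 2 arrays with 4 also has other noise than one of 3 with 3. For 57 of the 90 genes (63.3%, against 66.4% of all genes), the 2 arrays numbered 1 differed from the other 4 by more than narrow pools differed from wide pools. The median size was 0.049 for the first difference and 0.026 for the second, and the difference between the 2 sizes was not tested. Both arrays numbered 1 lay above the other 4 for 15 of the 90 genes (16.7%, against 12.2% of all genes) and below them for 15 (16.7%, against 19.9% of all genes). The genes named next were chosen after their values were seen. Cox5b, a zinc-binding subunit of complex IV, had 12.42, 12.25 and 12.28 in narrow pools, against 12.49, 12.24 and 12.27 in wide pools. Atp5md, a small subunit of ATP synthase, had 12.94, 12.74 and 12.71 in narrow pools, against 12.90, 12.75 and 12.71 in wide pools. Both were high in pool 1 of each cavity and close together in the other 4 pools. Uqcr11 had 11.54, 11.73 and 11.74 in narrow pools, against 11.45, 11.65 and 11.74 in wide pools, and was low in pool 1 of each cavity. Cox7a1 likewise had 9.31, 9.44 and 9.46 in narrow pools, against 9.24, 9.51 and 9.46 in wide pools. What the replicate number stands for is not given in the labels.

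With the 4 arrays numbered 2 and 3 alone, the median difference of the 90 genes was 0.025, against 0.013 with all 6. Of the 90 genes 1, Uqcrfs1, had an unadjusted p under 0.05. The share of all genes with such a p was not counted for these 4 arrays. By limma 0 passed after adjustment over all genes.

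**Figure D4:**
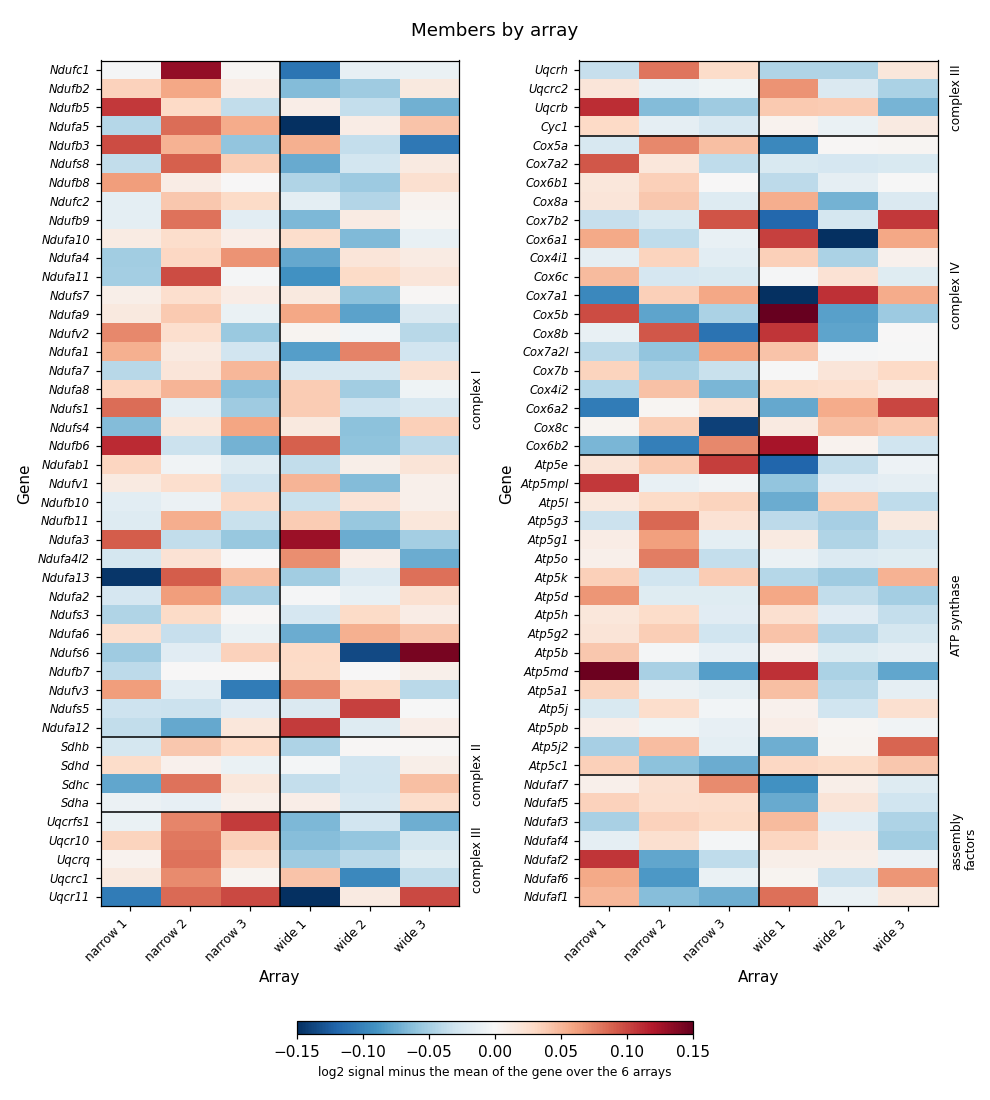
Log2 signal of each gene minus its mean over the 6 arrays (colour, with values beyond 0.15 in size drawn at the end of the scale), for narrow pools 1 to 3 and wide pools 1 to 3, ordered by complex. Uqcr10 is red in all narrow and blue in all wide pools, whereas Cox5b, Atp5md and Ndufa3 are red in pool 1 of both cavities.

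**Figure D5:**
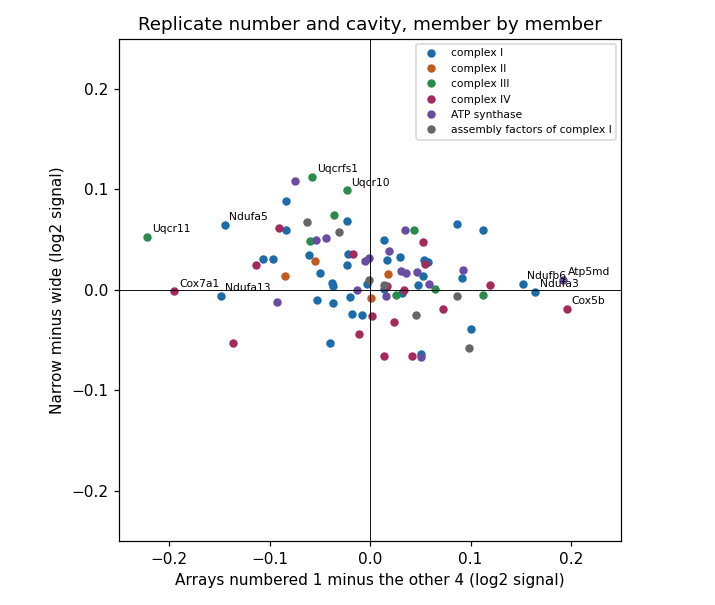
Difference between cavities (vertical axis, narrow minus wide, log2 signal) against the difference between the 2 arrays numbered 1 and the other 4 (horizontal axis, log2 signal), 1 point per gene, coloured by complex, on equal scales. The points spread further along the horizontal axis, from -0.22 for Uqcr11 to 0.20 for Cox5b, than along the vertical one, from -0.067 to 0.11.

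The genes that build, feed and regulate the chain were set beside its subunits. Of all genes, 50.9% had a positive difference and 3.40% an unadjusted limma p under 0.05 in either direction. Of those above the median signal, where 39 of the 42 assembly factors lie, 56.5% had a positive difference. Among 42 measured assembly factors of all complexes, 7 of them the Ndufaf genes above, 28 had a positive difference, 2 had an unadjusted limma p under 0.05 and 0 passed after adjustment. The 2 were Uqcc3, which helps to assemble complex III, at 0.11 ± 0.038 (SE), and Cox17, a copper chaperone of complex IV, at 0.15 ± 0.060, both higher in narrow pools. Uqcc3 averaged 8.40 ± 0.021 in narrow pools and 8.29 ± 0.0044 in wide pools (SD, n = 3 each). Cox17 averaged 8.60 ± 0.071 in narrow pools and 8.46 ± 0.091 in wide pools.

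Of 15 measured enzymes of the citric acid cycle and pyruvate oxidation, 8 had a positive difference and 0 an unadjusted p under 0.05, with a median of 0.0046. The smallest p-values were those of Pdhb, a pyruvate dehydrogenase subunit, at -0.044, and of Sucla2, a succinyl-CoA ligase subunit, at -0.038. Of 9 measured cytochrome c and carrier genes, 4 had a positive difference, with Slc25a31, an adenine nucleotide carrier, at -0.091 and the outer membrane channel Vdac2 at -0.065. Among 18 regulators of mitochondrial gene expression, 11 had a positive difference and 1 an unadjusted limma p under 0.05. It was Mterf4, a mitochondrial ribosome assembly factor, at 0.13 ± 0.048, followed by the coactivator Ppargc1b at 0.13 ± 0.076. The shares over all genes, 50.9% positive and 3.40% with an unadjusted limma p under 0.05, stand beside these counts too. After adjustment 0 of the genes in these lists passed.

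Tissue markers were read beside these results. The extraembryonic ectoderm list of 4 had a median difference of -0.15, with Esrrb at -0.22 ± 0.045, Bmp4 at -0.21 ± 0.077, Cdx2 at -0.10 and Elf5 at 0.040. Esrrb and Bmp4 were lower in all narrow pools than in all wide pools. So were 3.54% of all genes and 2.84% of those above the median signal. Elf5 had a positive difference in 3 of 3 same-numbered pairs. The mean signal over this list ran from 11.00 to 11.12 in narrow pools and from 11.14 to 11.22 in wide pools. After adjustment 0 of the 4 passed. The epiblast list, with Fgf5 at 0.043, Otx2 at 0.029, Pou5f1 at -0.015 and Utf1 at -0.023, ran from 11.58 to 11.75 in narrow pools and from 11.59 to 11.75 in wide pools. The visceral endoderm list, with Ttr at -0.046, Cubn at -0.026, Amn at -0.017, Apoa1 at 0.016 and Afp at 0.042, ran from 12.19 to 12.25 in narrow pools and from 12.19 to 12.26 in wide pools. The decidua and blood list, with Hbb-y at -0.082, Prl8a2 at -0.080, Ptprc at -0.039, Hand2 at 0.0051 and Des at 0.046, ran from 6.61 to 6.71 in narrow pools and from 6.67 to 6.70 in wide pools. Hbb-y, a dim gene, was also lower in all narrow pools than in all wide pools. The part of tissue shares in the small differences of the respiratory chain was not tested.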

How the data were processed

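The authors deposited 1 log2 signal per array feature and sample, from Affymetrix mouse Gene ST arrays. The sample labels name total RNA as the material and biotin as the label. The log2 scale was read from the range of the values, 4.33 to 14.31. The background correction, summarization and normalization behind them were not given in the sources used here. Array medians ran from 7.62 to 7.67, and the values were used as deposited. That range is wider than the median difference of 0.013 of the 90 genes, so median centring and quantile normalization are given as alternatives. A change of total RNA per embryo would not show. The number of arrays limits the precision.

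Of 28853 features, 21789 named 1 gene in the platform annotation, covering 19938 genes. Narrow minus wide was fitted with limma 3.58.1 in R 4.3.3 (lmFit, eBayes, two-sided, no covariate) on all 6 arrays, with Benjamini-Hochberg adjustment over all genes, a threshold of 0.05 and no filter. The fit was tested on simulated data. The members, lists and tests were chosen with earlier results of these data known. Pool values were given for the 3 smallest p-values of each complex, core subunits and isoforms, and up to 2 genes were named per other list. Other genes named were chosen after their values were seen.

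The pairing of samples by replicate number was taken from the values, since the labels do not state one. Over all genes, deviations from group means correlated at 0.516, 0.176 and 0.272 between the narrow and wide pools numbered 1, 2 and 3, each over 0.1. Correlations between pools of different number were not computed. The deviations within a group cancel, so a shift shared by the arrays numbered 1 can raise the correlations of pools 2 and 3 too. The pairing of pools 2 and 3 is therefore not established. Alternatives were a replicate block, a filter on dim genes, the mean of all rows of a gene, quantile normalization, median centring, an intensity trend, leaving out each array, and the arrays numbered 2 and 3 alone. Promoters came from RefSeq (GRCm38.p6). The NRF1 core was settled on after a longer form of that motif had been searched and its matches seen.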

Additional observations from a re-analysis of the deposited data

How the results depend on the processing

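Under all 13 alternatives limma passed 0 genes after adjustment, members of the respiratory chain included, and the lowest adjusted p of a member was 0.674, for Atp5e, Uqcr10 and Uqcrfs1 alike, with the replicate number as a block. At an unadjusted limma p under 0.05 the block added Atp5e to Uqcr10 and Uqcrfs1 (3 of the 90, 3.33%, against 7.25% of all genes). The 2 members with an unadjusted p under 0.05 became 3 with median centring, 3 of 82 with the filter and 4 with an intensity trend. They became 1 with the arrays numbered 2 and 3 only, and from 0 to 4 on leaving out single arrays. The share of all genes was counted for the main fit (3.40%) and the block (7.25%) only. The counts under the other settings therefore have no background beside them. The median difference of 0.013 stayed positive throughout, from 0.0067 without wide 2 to 0.025 with the arrays numbered 2 and 3. The block and the intensity trend could not move it. Per array, the median over the 90 genes of signal minus gene mean had an SD within cavities of 0.015, larger than 0.013. Members with separate groups, 8 with all arrays, numbered 11 to 24 when 1 array was left out (12.2% to 26.7%, against 14.5% to 20.4% of all genes) and 40 with 2 arrays a group (44.4%, against 33.3% of all genes), where fewer values have to separate. Of 437 differences of the 34 members chosen by the naming rule, 412 kept their sign and 25, in 11 members, changed it. None of these was called, and none was above 0.026 in size with all arrays. The block, the intensity trend and the filter leave a difference as it is. So does the mean of all rows for a gene with 1 row. Those values could not change sign, so the 412 include differences that were bound to keep it. For dim isoforms the unknown array background limits what can be seen.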

Other observations

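For 17 of the 90 genes the array held more than 1 row naming that gene alone, with 25 rows beside those used. The differences of these other rows, narrow minus wide, ran from -0.044 to 0.10 on the log2 scale. In 8 of the 25, belonging to 6 genes, the sign was opposite to that of the row used. The second row of Ndufc1 had 0.10, beside 0.089 for the row used. The 5 other rows of Atp5l, subunit g of ATP synthase, ran from 0.032 to 0.070, beside 0.051, so its 6 rows were all positive. The second row of Ndufa11 had -0.044, beside 0.030 for the row used. Rows of a gene share the same pools and may share sequence with other loci, so they are not independent measurements.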
